A study of Mus musculus with 12 samples.

Results

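The genes described here are 33 genes of the p53 network: the p53 gene Trp53, its regulators and genes known as p53 targets. They were listed by symbol, and all 33 were found among the 37620 gene entries of the count files. The rule for membership is the list of symbols and holds no measured value, but the list was drawn up with earlier results of these libraries known. RNA was measured by stranded mRNA sequencing in 12 libraries of neural stem cells, taken from E14.5 embryos of C57BL/6J mice, 3 libraries in each of 4 groups. E12KO cells carried the genotype E12-/- and E12wt cells were E12+/+ litter mates. E47KO cells were E47-/- and E47wt cells were E47+/+ litter mates. All 4 groups were grown as proliferating cultures with FGF-2, EGF and B-27 without vitamin A, and none was treated. E12 and E47 are transcription factors of the helix-loop-helix class, made as splice forms of one gene, Tcf3, and they bind DNA at short motifs called E boxes. The labels name replicates and do not say whether these came from separate embryos or cultures, so the p-values measure only the spread between these libraries.

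p53 is a transcription factor that is kept low by the ubiquitin ligase partners Mdm2 and Mdm4 and is stabilised when DNA is damaged or cells are stressed. Its targets include genes that slow the cell cycle, genes that start cell death through mitochondria or death receptors, and genes that repair DNA. In neural progenitors p53 is best known for limiting self-renewal and for removing damaged cells.

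Each library held 34515297 to 56835783 gene reads, and 18980 to 19617 genes had a read. Levels are given as CPM, a gene's reads relative to the gene reads of its library, after scaling of all 12 libraries with the TMM method, and 3 reads, the limit that a count of 0 allows, corresponded to 0.0528 to 0.0869 CPM. The neural stem cell markers, a list of 10 genes that includes Sox2, Nes and Pax6, summed to 7661 to 9077 CPM per library. Markers of neurons summed to 1115 to 1446 CPM, of astrocytes to 878 to 1628 CPM and of the oligodendrocyte lineage to 879 to 1466 CPM. Mesenchymal, endothelial and microglial markers summed to 28.7 to 52.2, 5.49 to 10.8 and 2.29 to 9.50 CPM. In such bulk samples, fewer cells of a type and less RNA per cell cannot be told apart. E47KO replicate 2 stood apart from the other libraries: 29.8% of 15277 genes had their lowest value of the 12 libraries there, and 29.5% had their highest. The sum of the Y-linked genes Uty, Kdm5d, Eif2s3y and Ddx3y was 200 to 245 CPM in E47wt replicate 2 and in all 3 E47KO libraries, and at most 0.408 CPM elsewhere. Sex therefore differed between the groups of the E47 line. A fit with sex as a covariate thus takes its E47 effect from the 3 E47KO libraries against E47wt replicate 2 alone. The same holds for the E47 part of the difference between the lines.

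The total level of Tcf3, which cannot separate its 2 splice forms and so does not check the labels, was 76.4, 82.2 and 75.8 CPM in the E12wt libraries against 91.7, 72.9 and 101 CPM in those of E12KO. It was 83.7, 75.4 and 97.2 CPM in the E47wt libraries against 118, 114 and 108 CPM in those of E47KO. All 3 E47KO libraries lay above all 3 E47wt libraries, while the E12 groups overlapped. The log2 fold changes were 0.18 ± 0.11 (SE) in the E12 line and 0.39 ± 0.12 in the E47 line, neither past the threshold (edgeR quasi-likelihood test, BH-adjusted p = 0.605 and 0.971).

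Promoter sequence was read for the members because their values tended to lie on one side of 0 together in each line, as described further on. RefSeq's promoter table for GRCm38.p6 held 34 windows for 25 of the 33 genes, and the 250 bases before each start were searched. A p53 half-site, the name for a stretch of 10 letters with purines, C, a pair of A or T, G and pyrimidines, was found in 10 of the 34 windows (29.4%). Among all 32841 windows of the same length 2341 (7.13%) held one. No member's window held a pair of half-sites with up to 13 bases between them, and 21 of all windows (0.0639%) did. E boxes (CANNTG, which reads the same on both strands) were in 17 of the 34 windows (50%) and in 66.2% of all windows. The half-sites of members whose levels are given library by library below are printed here in capitals, 5′ to 3′ on the gene's strand, with 10 bases on either side where these lie before the start.
Trp53, chr11:69580274-69580303, plus strand: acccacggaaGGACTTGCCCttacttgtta
Mdm2, chr10:117710925-117710954, minus strand: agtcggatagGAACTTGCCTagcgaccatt
Ppm1d, chr11:85311112-85311141, plus strand: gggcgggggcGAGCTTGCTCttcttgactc
Ccng1, chr11:40755452-40755481, minus strand: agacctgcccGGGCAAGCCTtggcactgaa
Bax, chr7:45467080-45467109, minus strand: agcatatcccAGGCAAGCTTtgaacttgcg
Ckap2, chr8:22186003-22186032, minus strand: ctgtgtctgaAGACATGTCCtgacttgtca
Ei24, chr9:36797335-36797354, minus strand: cgtgcggcccGGGCATGCCC
These matches lay between the last base before the start, in Ei24, and 203 bases before it, in Ckap2. Their core of 4 letters, the C, the central pair and the G, was CTTG in Trp53, Mdm2 and Ppm1d, CAAG in Bax and Ccng1, and CATG in Ckap2 and Ei24. A match describes letters in a window and is not a measured binding site. The members were listed as p53 network genes, so their share of half-sites describes the list and not an effect of either knockout. Sequence outside these windows was not searched.

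All 33 genes were expressed above the limit of detection in every library and passed the low-count filter in every comparison. Per kilobase of exon, the mean level over the 12 libraries ranged from 0.345 CPM per kb for Dram1, a membrane protein of lysosomes, to 122 CPM per kb for Ccng1. Bax (106), Ckap2 (60.3) and Ei24 (57.0 CPM per kb) followed Ccng1, and Gdf15 (0.571) and Perp (0.659 CPM per kb) stood next to Dram1 at the low end. Trp53 itself, at 27.8 CPM per kb, ranked 10th of the 33.

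No member passed the threshold in either knockout (edgeR quasi-likelihood test, lowest BH-adjusted p 0.507 for E12 and 0.971 for E47). DESeq2 called none of the 33 in either line. The background was low as well: edgeR called 6 of 14755 genes in the E12 line (0.0407%) and 2 of 14965 in the E47 line (0.0134%), and DESeq2 called 95 and 5. At an unadjusted p under 0.05, edgeR and DESeq2 each counted 2 members in each line, a share of 6.06%, beside 8.96% of all genes in the E12 line and 2.19% in the E47 line with edgeR. The share in the E12 line was thus no higher than the background. These small counts moved with the fit and with single libraries. With all 12 libraries in the fit the E12 line had 0 such members, and with sex as a covariate the E47 line had 1. Leaving out E12KO replicate 3 gave 1 member in the E12 line, leaving out E12KO replicate 1 gave 5, and leaving out any of E12wt replicate 2, E12wt replicate 3 or E12KO replicate 2 gave 4. For the E47 line, leaving out E47wt replicate 2 gave 0, leaving out E47wt replicate 1 gave 1 and leaving out E47KO replicate 1 gave 4.

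The signs of the estimates differed between the lines. In E12KO against E12wt, 24 of the 33 estimates were above 0 and their median log2 fold change was 0.10, where 51.4% of all genes were above 0 and the median of all genes was 0.0045. In E47KO against E47wt, 24 of 33 were below 0 and the median was −0.10, where 51.0% of all genes were below 0 and the median was −0.0050. Both medians rested in part on 1 library: the E12 median was 0.06 without E12KO replicate 2, and the E47 median was −0.06 without E47KO replicate 2. The estimate was above 0 in the E12 line and below 0 in the E47 line for 18 of the 33 genes (54.5%), beside 25.6% of 14614 genes tested in both lines. Leaving out 1 library at a time gave 15 to 20 members with that pattern. This share follows largely from the 24 of 33 genes on one side of 0 in each line. It does not show that the same genes moved in opposite directions beyond those counts. The opposite pattern was seen for 3 members, Btg2, Ddb2 and Xpc, and 6 members were above 0 in both lines and 6 below 0 in both.

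By library, the members' median deviation from their own 12-library mean (log2 CPM) was highest in E12KO replicates 2 and 3, at 0.09 and 0.08, and in E47wt replicate 1, at 0.06. It was lowest in E47KO replicate 2, at −0.21, and lay between −0.04 and 0.02 in the other 8 libraries. E12KO replicate 2 held the highest value of 11 of the 33 members, where 8.38% of all genes had their highest value there. E47KO replicate 2 held the lowest value of 16 members and the highest of 5. The same library was low for other lists described below: integrated stress response genes, kinases and cofactors of p53, cell cycle genes and other p53 targets had median deviations of −0.37, −0.31, −0.28 and −0.14. It was high for markers of the oligodendrocyte lineage, astrocytes and neural stem cells, at 0.75, 0.56 and 0.30. Not all of these values were particular to it. The integrated stress response genes were nearly as low in replicate 3 of E47wt, E47KO and E12wt, at −0.37, −0.34 and −0.31. The oligodendrocyte lineage markers were nearly as high in E12wt replicate 3, at 0.71. The part of the condition of E47KO replicate 2 in the members' values was not tested beyond the values given without that library.

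**Figure D1:**
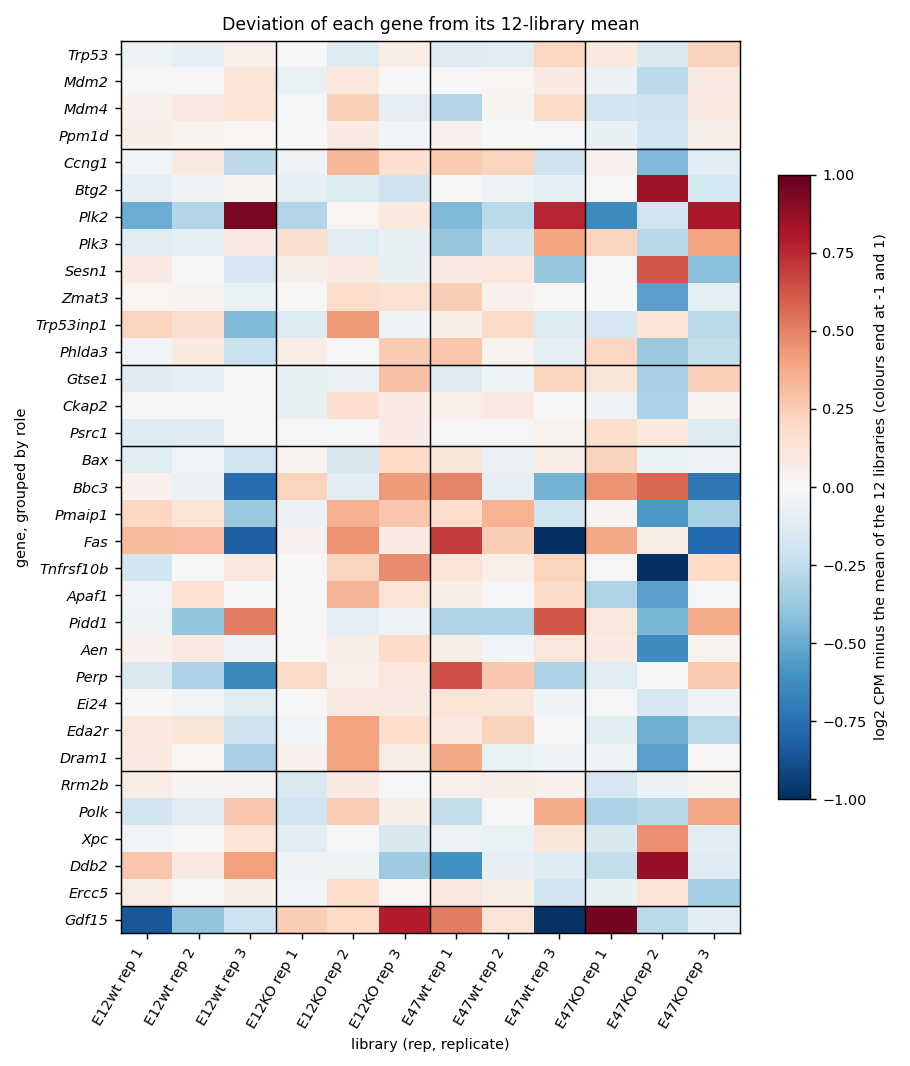
Deviation of each of the 33 genes (rows, grouped by role with lines between the groups) from its mean over the 12 libraries (columns), in log2 CPM, with colours that end at −1 and 1. E47KO replicate 2 holds the lowest value of 16 genes but high values of Btg2, Ddb2 and Sesn1, and Plk2 is high in replicate 3 of E12wt, E47wt and E47KO.

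The 4 regulators differed little between the groups, with fitted log2 changes from −0.11 to 0.06. Trp53 (ENSMUSG00000059552, chromosome 11), which encodes p53, was at 108, 106 and 116 CPM in the E12wt libraries against 112, 102 and 118 CPM in those of E12KO. Across the E47 line it was at 102, 103 and 129.9 CPM in the wild-type libraries against 119.7, 101 and 131 CPM in the knockouts. The groups overlapped in both lines, and the highest values of the E47 line were both in replicate 3. The log2 fold changes of Trp53 were 0.01 ± 0.07 and 0.06 ± 0.14, each smaller than its standard error.

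Mdm2 (ENSMUSG00000020184, chromosome 10), the ubiquitin ligase that degrades p53 and is itself a p53 target, was at 93.3, 92.7 and 103 CPM in the E12wt libraries against 89.6, 101 and 94.2 CPM in those of E12KO. It was at 93.6, 95 and 99.4 CPM in the E47wt libraries against 90.3, 78.5 and 100.01 CPM in those of E47KO, with the lowest value of all 12 libraries in E47KO replicate 2. The groups overlapped, at log2 fold changes of −0.02 ± 0.07 and −0.11 ± 0.11. Mdm4 (ENSMUSG00000054387, chromosome 1), the partner of Mdm2 that blocks p53's activation domain, was at 96.9, 100.4 and 103 CPM in the E12wt libraries against 93.0, 111 and 88.5 CPM in those of E12KO. It was at 76.8, 96.1 and 108 CPM in the E47wt libraries against 82.2, 81.6 and 101 CPM in those of E47KO. The knockout values lay on both sides of the wild-type values in the E12 line and within their range in the E47 line, at −0.03 ± 0.09 and −0.10 ± 0.15.

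Ppm1d (ENSMUSG00000020525, chromosome 11), a phosphatase that switches the p53 response off, was at 69.9, 68.7 and 68.1 CPM in the E12wt libraries against 66.9, 71.1 and 65.8 CPM in those of E12KO. The E47wt libraries had 69.0, 66.7 and 66.5 CPM and those of E47KO 63.7, 58.9 and 69.7 CPM. It was the second most even of the 33 genes, with a highest value 1.21 times its lowest. Its log2 fold changes were −0.02 ± 0.06 and −0.09 ± 0.11.

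**Figure D2:**
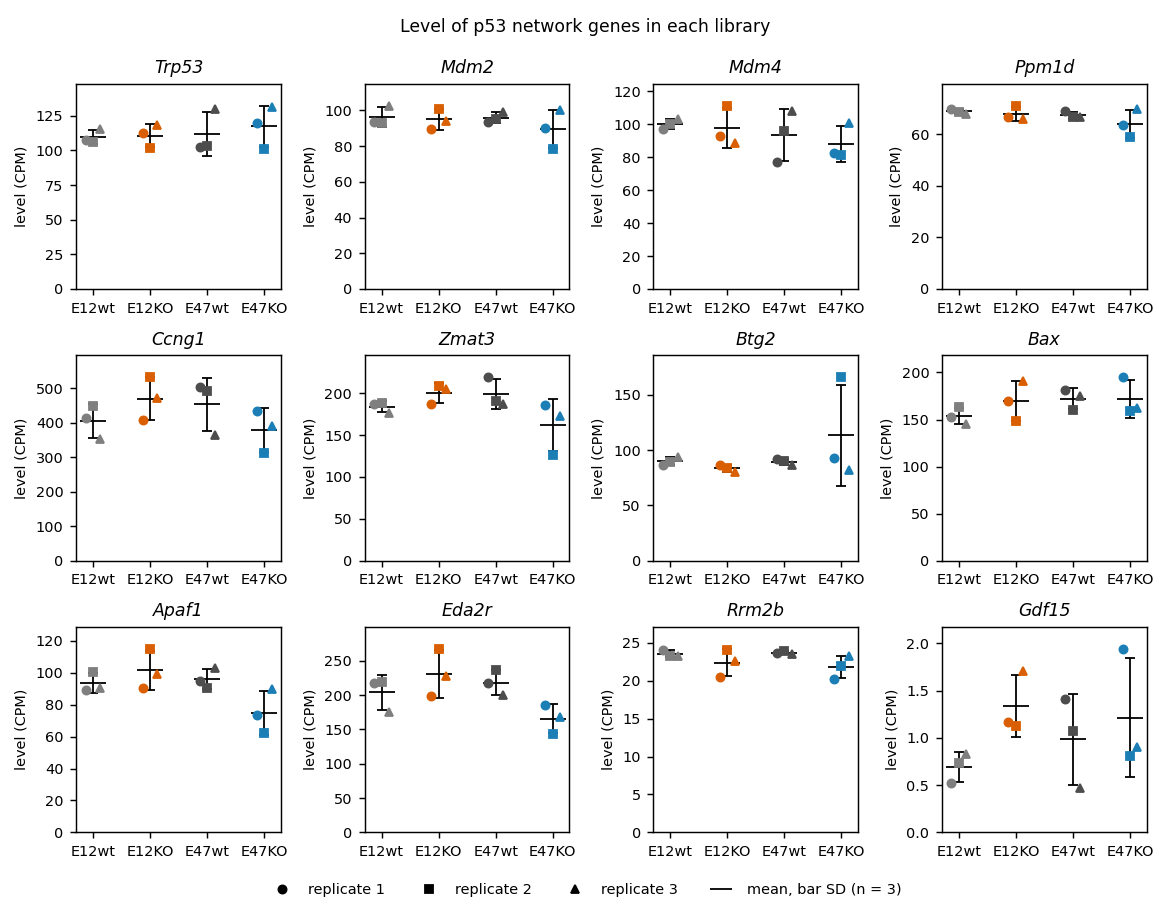
Level in CPM (y axis, from 0) of 12 of the genes in each library, by group (x axis). Each symbol is 1 library, its shape gives the replicate number, and bars show the mean and SD of 3 libraries. The 3 E47KO values of Apaf1, Eda2r, Zmat3 and Rrm2b lie below all 3 E47wt values, and those of Trp53 and Mdm2 overlap.

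Of the 8 growth arrest and feedback genes, 6 had estimates above 0 in the E12 line (median 0.08) and 5 below 0 in the E47 line (median −0.08). The E12 median was 0.12 without E12wt replicate 1. In the E47 line 4 were below 0 and the median was −0.0062 without E47KO replicate 1, while the median was −0.12 without E47wt replicate 1 or 2 and −0.13 without E47KO replicate 2. Ccng1 (ENSMUSG00000020326, chromosome 11), cyclin G1, a target through which p53 signals back to Mdm2, was the most abundant member. Its level was 413, 449 and 352 CPM in the E12wt libraries against 409, 531 and 471 CPM in those of E12KO, and 505, 491 and 365 CPM in the E47wt libraries against 435, 312 and 389.8 CPM in those of E47KO. Its highest value was in E12KO replicate 2 and its lowest in E47KO replicate 2, and the groups overlapped in both lines. The log2 fold change was 0.22 ± 0.12 in the E12 line and −0.28 ± 0.17 in the E47 line (edgeR unadjusted p = 0.0962 and 0.156).

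Zmat3 (ENSMUSG00000027663, chromosome 3), an RNA-binding zinc finger protein induced by p53, was at 219, 191 and 187 CPM in the E47wt libraries against 185, 127 and 173 CPM in those of E47KO. All 3 knockout values lay below all 3 wild-type values, though replicates 1 of the knockout and 3 of the wild type were close. The log2 fold change was −0.31 ± 0.16 (edgeR BH-adjusted p = 0.971) and −0.17 ± 0.10 without E47KO replicate 2. The E12 line had 187, 188 and 176 CPM in the wild-type libraries against 187, 209 and 205 CPM in the knockouts, groups that overlapped, at 0.13 ± 0.07.

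Btg2 (ENSMUSG00000020423, chromosome 1), an antiproliferative gene that marks progenitors about to make neurons, was at 86.7, 89.5 and 94.1 CPM in the E12wt libraries against 86.4, 84.2 and 79.9 CPM in those of E12KO. The knockout values were all lower, by −0.11 ± 0.06 on the log2 scale (edgeR BH-adjusted p = 0.594). The E47 line had 92.3, 89.8 and 86.7 CPM in the wild-type libraries against 93.2, 166 and 81.8 CPM in the knockouts, so that a single library, E47KO replicate 2, held a level well above all others. The estimate there was 0.33 ± 0.26 with that library and −0.05 ± 0.09 without it, on the other side of 0.

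The remaining 5 genes of this group overlapped between the groups of each line. Plk2, a stress-induced polo-like kinase, was at 93.1, 107 and 253 CPM in the E12wt libraries against 107, 133 and 141 CPM in those of E12KO. The E47wt libraries had 96.7, 109 and 223 CPM and those of E47KO 84.9, 115 and 232 CPM. Replicate 3 of E12wt, E47wt and E47KO were far above the rest, while replicate 3 of E12KO was not, and this spread left estimates of −0.25 ± 0.33 and −0.01 ± 0.44. Plk3, a related kinase, ranged from 7.48 to 12.9 CPM and Sesn1, a sestrin that restrains growth signalling, from 30.5 to 62.8 CPM. Trp53inp1, a nuclear partner of p53, ranged from 183 to 334 CPM and Phlda3, an inhibitor of Akt, from 41.5 to 65.2 CPM. Trp53inp1 and Phlda3 had estimates above 0 in the E12 line (0.10 ± 0.20 and 0.17 ± 0.10) and below 0 in the E47 line (−0.15 ± 0.15 and −0.21 ± 0.18).

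The 3 genes of the mitotic spindle and G2 group had estimates above 0 in the E12 line, with a median of 0.12, or 0.06 without E12KO replicate 3. Ckap2 (ENSMUSG00000037725, chromosome 8), a spindle protein, was at 193, 192 and 195 CPM in the E12wt libraries against 184, 217 and 205 CPM in those of E12KO. It was at 201, 205 and 193 CPM in the E47wt libraries against 188, 156 and 198 CPM in those of E47KO. The wild-type values of the E12 line were close together and lay inside the range of the knockout, and E47KO replicate 2 was again the lowest. Its log2 fold changes were 0.06 ± 0.07 and −0.16 ± 0.12. Gtse1, which moves p53 out of the nucleus in G2, ranged from 56.4 to 86.9 CPM (0.14 ± 0.10 and −0.01 ± 0.17). Psrc1, a microtubule-binding protein, ranged from 81.5 to 100.3 CPM (0.12 ± 0.06 and 0.04 ± 0.11).

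The 12 cell death genes lay mostly on one side of 0 in each line. In the E12 line 11 of 12 had estimates above 0, with a median of 0.18, and in the E47 line 11 of 12 were below 0, with a median of −0.21. The exceptions were Pidd1 in the E12 line and Bbc3 in the E47 line. The E12 count stayed at 11 when any 1 library was left out, but the median dropped to 0.09 when this was E12wt replicate 3 and to 0.10 when it was E12KO replicate 2. In the E47 line 8 to 11 were below 0 with 1 library left out. The E47 median was −0.12 without E47KO replicate 2, −0.34 without E47KO replicate 1 and −0.31 without E47wt replicate 3. With sex as a covariate 9 of 12 were below 0 in the E47 line, with a median of −0.22. E47wt replicate 2 is the only wild type behind that effect, so the fit does not separate sex from that library.

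Eda2r (ENSMUSG00000034457, chromosome X), a receptor of the tumour necrosis factor family, was at 218, 236 and 199.6 CPM in the E47wt libraries against 185, 144 and 167 CPM in those of E47KO. The 3 knockout values were the lower ones, with a gap between the groups. The log2 fold change was −0.41 ± 0.13, with an unadjusted p of 0.0137 that did not survive adjustment (edgeR BH-adjusted p = 0.971). Because the gene is on the X chromosome and the libraries differ in sex, the fit was repeated with sex as a covariate and gave −0.53 ± 0.19. That fit sets the 3 knockout libraries against E47wt replicate 2 alone, so it cannot tell sex from that 1 library. The wild-type library with Y-linked RNA, E47wt replicate 2, had the highest Eda2r level of the E47 line. In the E12 line, where the Y-linked sum was at most 0.149 CPM, Eda2r was at 218, 219.8 and 175 CPM in the wild-type libraries against 198, 267 and 228 CPM in the knockouts, overlapping groups at 0.18 ± 0.13. Without E12KO replicate 2, its highest library, the E12 estimate was 0.06 ± 0.12.

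Apaf1 (ENSMUSG00000019979, chromosome 10), the scaffold of the apoptosome that activates caspase-9, was at 94.6, 90.5 and 103 CPM in the E47wt libraries against 73.4, 62.2 and 89.6 CPM in those of E47KO. The knockout values were all lower, with replicate 3 just under the lowest wild-type value. The log2 fold change was −0.37 ± 0.15, with an unadjusted p of 0.0378 (edgeR BH-adjusted p = 0.971), and −0.25 ± 0.11 without E47KO replicate 2. Apaf1 in the E12 line was at 89.0, 101 and 90.7 CPM in the wild-type libraries against 90.4, 115 and 98.96 CPM in the knockouts, with overlap, at 0.12 ± 0.10. The E12 estimate was 0.02 ± 0.08 without E12KO replicate 2.

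Bax (ENSMUSG00000003873, chromosome 7), which opens the outer mitochondrial membrane, was at 153, 163 and 146 CPM in the E12wt libraries against 169, 149 and 191 CPM in those of E12KO, and at 181, 160.0 and 175 CPM in the E47wt libraries against 195, 159 and 162 CPM in those of E47KO. The groups overlapped in both lines, at 0.14 ± 0.09 and −0.02 ± 0.12. Ei24 (ENSMUSG00000062762, chromosome 9), a membrane protein of the endoplasmic reticulum first found as a p53-induced gene, was at 276, 272 and 255 CPM in the E12wt libraries against 276, 294 and 295 CPM in those of E12KO. It was at 302, 301 and 269 CPM in the E47wt libraries against 275, 247 and 268 CPM in those of E47KO. These values were among the evenest of the members, with overlap in both lines by a single library, at 0.11 ± 0.06 and −0.16 ± 0.10.

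Perp (ENSMUSG00000019851, chromosome 10), a membrane protein of cell junctions linked to p53-dependent death, was at 1.13, 1.00 and 0.786 CPM in the E12wt libraries against 1.44, 1.30 and 1.35 CPM in those of E12KO. All 3 knockout values were higher, from 662 reads over the 12 libraries in all, and the log2 fold change was 0.49 ± 0.22 (edgeR BH-adjusted p = 0.557). Its E47 groups overlapped, with 1.99, 1.52 and 1.00 CPM in the wild-type libraries against 1.15, 1.25 and 1.51 CPM in the knockouts, at −0.21 ± 0.31.

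The remaining cell death genes overlapped between the groups of each line. Pmaip1 (Noxa), which frees the mitochondrial death machinery from Mcl1, ranged from 26.6 to 50.6 CPM, with estimates of 0.19 ± 0.16 and −0.41 ± 0.21. Bbc3 (Puma), a strong activator of Bax, ranged from 4.72 to 12 CPM and had estimates above 0 in both lines, 0.41 ± 0.22 and 0.16 ± 0.39. Aen, an apoptosis-enhancing nuclease, ranged from 69.0 to 122 CPM, and Pidd1, the platform for caspase-2, from 14.2 to 30.1 CPM. Among the death receptors, Fas ranged from 1.87 to 6.20 CPM and Tnfrsf10b from 5.38 to 17.0 CPM. Fas was lowest in replicate 3 of E47wt, E12wt and E47KO, at 1.87, 2.13 and 2.20 CPM, the libraries in which Plk2 was highest. Tnfrsf10b had its lowest value in E47KO replicate 2, at 5.38 CPM, where every other library was at 10.7 CPM or more.

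Of the 5 genes of DNA repair and nucleotide supply, 3 had estimates below 0 in each line. In the E12 line all 5 were below 0 without E12wt replicate 2 or E12KO replicate 2, and in the E47 line 2 were below 0 without E47wt replicate 3, E47KO replicate 1 or E47KO replicate 3. Rrm2b (ENSMUSG00000022292, chromosome 15), the p53-induced subunit of ribonucleotide reductase, was at 23.6, 23.9 and 23.5 CPM in the E47wt libraries against 20.3, 21.9 and 23.3 CPM in those of E47KO. The knockout values were all lower, by −0.13 ± 0.12 on the log2 scale, little more than the standard error (edgeR BH-adjusted p = 0.971). The E12 line had 24.1, 23.3 and 23.3 CPM in the wild-type libraries against 20.5, 24.1 and 22.6 CPM in the knockouts, with overlap. Rrm2b was the evenest of the 33 genes, with a highest value 1.19 times its lowest.

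Ddb2 (ENSMUSG00000002109, chromosome 2), which finds ultraviolet damage for nucleotide excision repair, was at 6.63, 5.84 and 7.31 CPM in the E12wt libraries against 5.33, 5.33 and 4.25 CPM in those of E12KO. All 3 knockout values were lower, at a log2 fold change of −0.40 ± 0.15 and an unadjusted p of 0.0254 (edgeR BH-adjusted p = 0.528). For the E47 line the values were 3.59, 5.18 and 5.03 CPM in the wild-type libraries against 4.65, 10.1 and 5.01 CPM in the knockouts, and the estimate of 0.50 ± 0.34 became 0.05 ± 0.21 without E47KO replicate 2. Most strand-assigned reads over Ddb2, 74.0%, were on the strand that the counts used here leave out. Counts made without regard to strand came to 56.3% of those used. Xpc and Ercc5, further genes of excision repair, ranged from 19.8 to 30.5 CPM and from 69.0 to 98.4 CPM, and Polk, a DNA polymerase that copies past damage, from 16.0 to 26.0 CPM. All 3 overlapped between the groups of each line.

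Gdf15 (ENSMUSG00000038508, chromosome 8), a secreted stress hormone, had the largest estimate of the 33 in the E12 line. It was at 0.520, 0.733 and 0.833 CPM in the E12wt libraries against 1.17, 1.13 and 1.71 CPM in those of E12KO, from 538 reads over the 12 libraries in all. All knockout values lay above all wild-type values, at a log2 fold change of 0.94 ± 0.28 and an unadjusted p of 0.00813 (edgeR BH-adjusted p = 0.507). In the E47 line the values were 1.42, 1.07 and 0.469 CPM in the wild-type libraries against 1.94, 0.804 and 0.901 CPM in the knockouts. These spanned the range of both E12 groups, and the estimate was 0.30 ± 0.50.

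Counted over the members, 2 of 33 (Gdf15 and Perp) lay higher without overlap in E12KO, beside 6.77% of all genes, and 2 (Btg2 and Ddb2) lay lower, beside 6.95%. In E47KO none lay higher, beside 4.74% of all genes, and 4 (Zmat3, Apaf1, Eda2r and Rrm2b) lay lower, beside 3.07%. The members' shares in the E12 line were near the background. The median coefficient of variation of the members within a group was 7.85% in E12wt, 10.8% in E12KO, 13% in E47wt and 19.9% in E47KO, so differences in the E47 line were the least precisely measured. Over all genes that passed the low-count filter it was 9.09%, 9.01%, 10.5% and 19.9% in the same order. The wide spread in E47KO was thus not particular to the members.

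**Figure D3:**
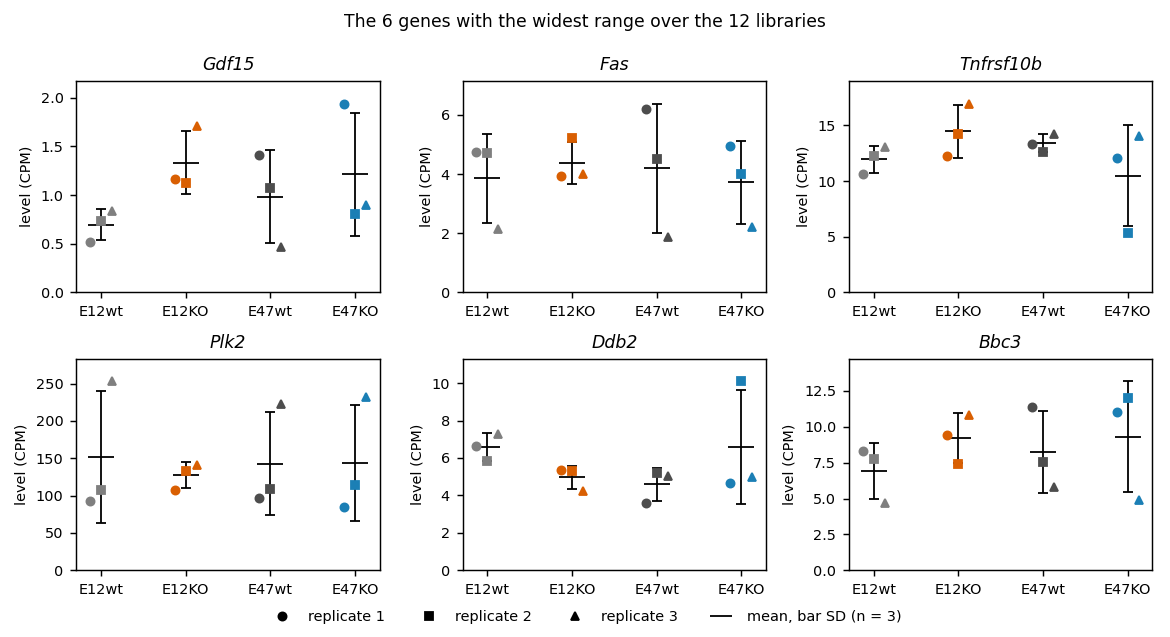
Level in CPM (y axis, from 0) of the 6 genes with the highest ratio of highest to lowest library, by group (x axis), with 1 symbol per library and bars for mean and SD of 3 libraries. Plk2 is high and Fas and Bbc3 are low in replicate 3 of E12wt, E47wt and E47KO, while E47KO replicate 2 is the extreme of Ddb2 and Tnfrsf10b.

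The difference between the 2 knockout effects was tested in all 12 libraries as the E47 effect minus the E12 effect. No member and no gene of 15277 passed the threshold (edgeR quasi-likelihood test, 0%; lowest BH-adjusted p 0.932), and DESeq2 called no member and 1 gene. At an unadjusted p under 0.05 there were 5 members with either tool, 15.2% of the 33, beside 3.03% of all genes with edgeR. Eda2r (−0.59 ± 0.19, unadjusted p = 0.0101), Apaf1 (−0.49 ± 0.18, 0.0209), Zmat3 (−0.43 ± 0.18, 0.032) and Ei24 (−0.26 ± 0.11, 0.0371) had the lower value in the E47 line. Ddb2 (0.91 ± 0.39, 0.0386) had the higher one. Without E12KO replicate 2 the number was 2, Eda2r and Ddb2, and without E47KO replicate 2 it was 3, Eda2r, Apaf1 and Zmat3. It was also 2 without E12wt replicate 3, E12KO replicate 3 or E47wt replicate 1 and with sex as a covariate, and 8 without E47wt replicate 3 or E47KO replicate 1.

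Over all 33 members, 25 differences were below 0, with a median of −0.16, beside 49.3% and a median of 0.0051 for all genes. Of the 12 cell death genes 11 were below 0, with a median of −0.43. When 1 library was left out at a time, 10 to 12 of these 12 genes were below 0 and the median ran from −0.54 to −0.30. With sex as a covariate 11 were below 0, with a median of −0.38, where the E47 part again rests on E47wt replicate 2 as its wild type. The growth arrest group divided evenly, 4 below 0 and 4 above. Since the members were chosen with results of these libraries known, these counts describe the list and are not independent evidence of its direction.

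**Figure D4:**
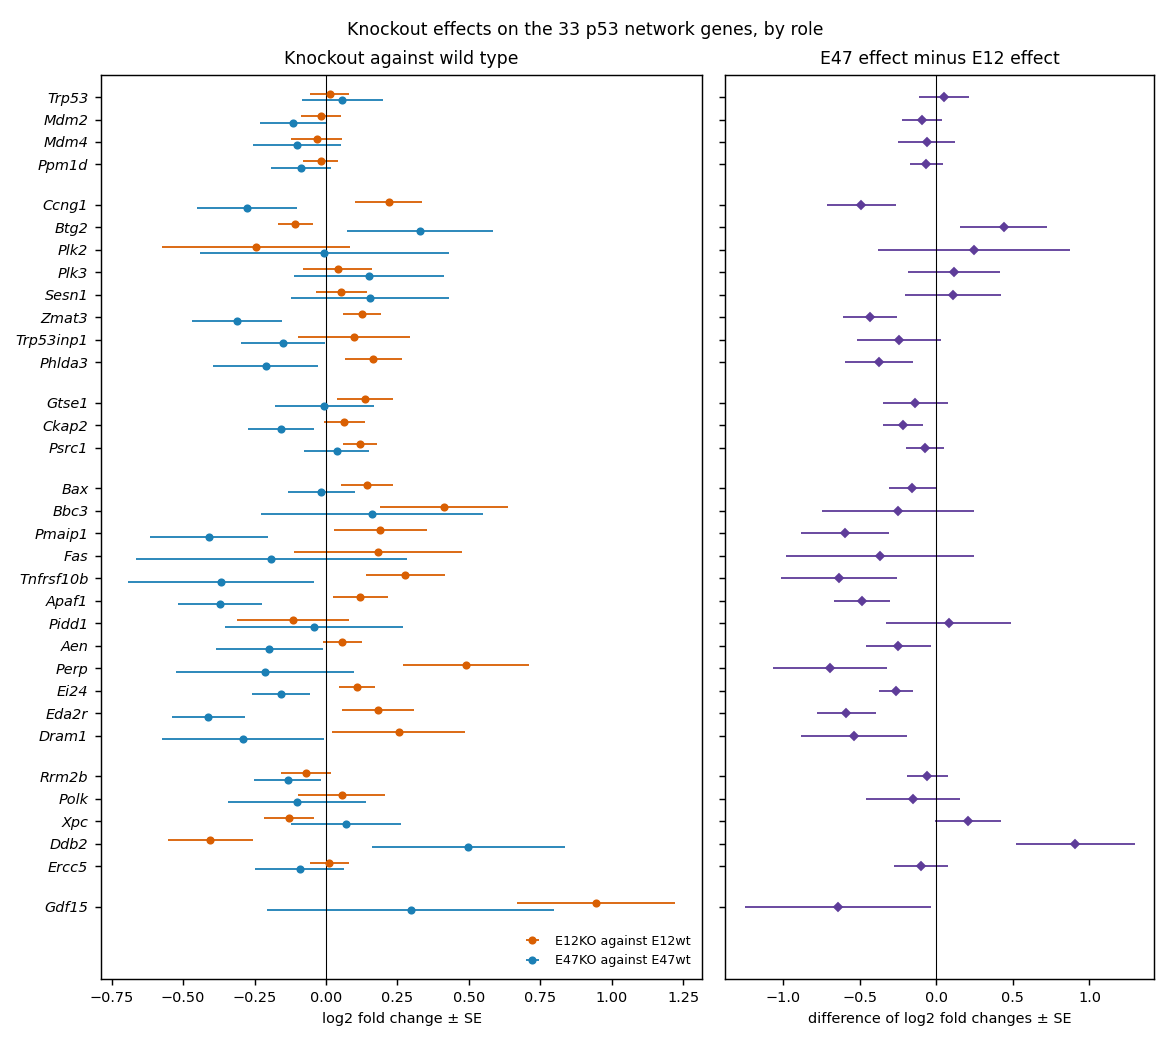
Left, log2 fold change of each of the 33 genes (y axis, grouped by role) in E12KO against E12wt (orange) and E47KO against E47wt (blue); right, the difference of the 2 effects (x axes in log2 units; bars are the SE of edgeR's fit). For 11 of the 12 cell death genes the difference is below 0, while the 4 regulators lie close to 0 in both lines.

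The wild types of the 2 lines were set against each other to show how far the members differ without a knockout. No member and no gene of 14892 was called (edgeR quasi-likelihood test, 0%), DESeq2 called no member and 6 genes, and at an unadjusted p under 0.05 there was 1 member with either tool, Ddb2, beside 3.81% of all genes with edgeR. That count was 0 without E12wt replicate 1, E12wt replicate 3 or E47wt replicate 1, 2 without replicate 2 of either group, and 5 without E47wt replicate 3. Ddb2 was at −0.52 ± 0.18 in E47wt against E12wt, and its 3 E47wt values were lower without overlap, beside 4.51% of all genes. No member was higher without overlap, beside 4.93%. The cell death genes had 11 of 12 estimates above 0 here too, with a median of 0.11. Without E12wt replicate 3 the count was 8 and the median 0.03, and without E12wt replicate 2 the median was 0.18. E12wt enters this comparison and the E12 comparison, and E47wt enters it and the E47 comparison, so the 3 are not independent. Bax, for example, had group means of 154 ± 8.80 CPM in E12wt, 169.9 ± 21.2 in E12KO, 172 ± 10.9 in E47wt and 172 ± 20.0 in E47KO (SD, n = 3). Perp likewise was at 0.972 ± 0.172 CPM in E12wt, below the means of the other 3 groups, which ran from 1.30 to 1.5 CPM.

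Cdkn1a, which encodes the cell cycle inhibitor p21 and is the best known p53 target outside the list, was at 266, 302 and 219 CPM in the E12wt libraries against 296, 357 and 384 CPM in those of E12KO. It was at 336, 325 and 247 CPM in the E47wt libraries against 333, 199 and 231 CPM in those of E47KO. The groups overlapped by 1 library in each line, at 0.40 ± 0.13 in the E12 line and −0.27 ± 0.21 in the E47 line (edgeR BH-adjusted p = 0.523 and 0.971). The difference of the 2 effects was −0.66 ± 0.28, with an unadjusted p of 0.0344.

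Of 38 tested genes in a list of other p53 targets that includes Cdkn1a, none was called in either line by edgeR. In the E12 line 26 were above 0 (median 0.11), and 10 had an unadjusted p under 0.05, a share of 26.3% beside 8.96% of all genes. Without overlap 8 were higher and 1 was lower, beside 6.77% and 6.95% of all genes. Of the same genes in the E47 line, 18 were above 0 (median −0.03) and none had an unadjusted p under 0.05. Trp53i11, the most abundant of them, was at 0.38 ± 0.17 and 0.0044 ± 0.32 in the E12 and E47 lines.

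The kinases and cofactors that act on p53 gave 17 tested genes and no call in either line by edgeR, with medians of 0.02 and −0.11 and unadjusted p under 0.05 for 2 and 1 of them, shares of 11.8% and 5.88% beside 8.96% and 2.19% of all genes. Trim28, a corepressor that works with Mdm2, was at 0.05 ± 0.07 and 0.03 ± 0.18, and Huwe1, a ubiquitin ligase for p53, at 0.37 ± 0.16 and −0.32 ± 0.14. None of 20 cell cycle genes that p21 is known to repress was called or had an unadjusted p under 0.05 in either line, with medians of −0.02 and −0.06. Top2a, a topoisomerase of dividing cells, was at 0.03 ± 0.07 and −0.12 ± 0.20, and the proliferation marker Mki67 at 0.08 ± 0.09 and −0.26 ± 0.20.

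Genes of 2 general stress programmes were looked at in the same libraries. Of 19 immediate early genes, which answer growth factors within minutes, 16 were above 0 (median 0.32) in the E12 line and 15 (median 0.21) in the E47 line. Klf6, the most abundant of them, was at 0.45 ± 0.13 and −0.06 ± 0.15, and Jun at 0.13 ± 0.15 and 0.09 ± 0.17. None was called by edgeR in either line. Fosb was called in the E12 line by DESeq2 and not by edgeR (1.14 ± 0.20, BH-adjusted p = 0.241). Of 12 genes of the integrated stress response 11 were above 0 in the E12 line (median 0.19) and 4 in the E47 line (median −0.06), with none called. Psat1 and Phgdh, enzymes of serine synthesis and its most abundant members, were at 0.06 ± 0.06 and 0.13 ± 0.10 in the E12 line and −0.0035 ± 0.10 and 0.19 ± 0.15 in the E47 line. In the E12 line 6 of the 19 immediate early genes (31.6%) had an unadjusted p under 0.05 with edgeR, all higher. So did 4 of the 12 integrated stress response genes (33.3%), beside 8.96% of all genes. Without overlap, 4 genes of each list were higher, beside 6.77% of all genes, and 1 immediate early gene was lower, beside 6.95%. In the E47 line neither list had a gene at that p, beside 2.19% of all genes. The part of these programmes in the members' values was not tested.

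Markers of other cells are given for the same comparisons. In the E12 line, all 8 oligodendrocyte lineage markers were below 0 (median −0.64) and 7 of 8 tested neuron markers were below 0 (median −0.38), none called by edgeR. Each of these lists had 3 genes at an unadjusted p under 0.05 with edgeR, a share of 37.5% beside 8.96% of all genes. The numbers were 0 and 1 in the E47 line, where the share of all genes was 2.19%. Of 7 tested mesenchymal markers 3 were called lower, with a median of −1.83: Col1a1 (−1.83 ± 0.18), Col1a2 (−5.28 ± 0.44) and Bgn (−3.45 ± 0.28), which encode collagen and matrix proteins (edgeR BH-adjusted p = 0.0105, 0.00433 and 0.00433). The other 4 were not called by edgeR. Col3a1, a further collagen that DESeq2 called, was at −4.21 ± 0.57, and 3 lay above 0: Fn1 (0.39 ± 0.20), Foxc1 (0.45 ± 0.18) and Twist1 (0.94 ± 0.56). The summed level of all 10 mesenchymal markers was 32.3 to 51.8 CPM in E12wt and 36.4 to 49.7 CPM in E12KO. In the E47 line the medians were 0.02, −0.15 and −0.37, with none called, and the astrocyte markers had medians of 0.29 in the E12 line and 0.36 in the E47 line. The most abundant stem cell markers, Fabp7 and Vim, were at −0.14 ± 0.09 and 0.12 ± 0.08 in the E12 line and −0.17 ± 0.11 and 0.14 ± 0.10 in the E47 line. All 10 stem cell markers had medians of −0.01 and 0.05 in the E12 and E47 lines, with none called by edgeR. In the E12 line 2 of them (20%) had an unadjusted p under 0.05 with edgeR, beside 8.96% of all genes, both lower. None did in the E47 line, beside 2.19%. The most abundant markers of the other neural lists were Map2 and Gap43 of neurons, Sparcl1 and Mlc1 of astrocytes, and Olig1 and Olig2 of the oligodendrocyte lineage, none of them called. The part of these cells in the members' values was not tested.

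The authors' deposited table for the E12 line listed 30 of the 33 members, without Perp, Dram1 and Gdf15, and that for the E47 line listed all 33. In the tables that the authors deposited, 21 of 30 members were above 0 in the E12 line and 22 of 33 were below 0 in the E47 line. The lowest adjusted p of a member in the authors' deposited tables was 0.452 in the E12 line and 0.999 in the E47 line, where 62 and 10 genes in all were under 0.05.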

How the data were processed

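For each of the 12 libraries the authors deposited integer counts of reads per gene in 3 versions (both strands, sense strand and opposite strand). STAR 2.5, genome build mm9, DESeq2 and DESeq are named, without role, per the submitters' processing notes, and an annotation release is not given in sources used here. Opposite-strand counts held 97.1 to 97.2% of strand-assigned gene reads and were used. Rows that name no gene held 14.2 to 17.5% of counted reads and stayed out of library sizes. For each line the authors also deposited a table with normalized signal per library, log2 fold changes with standard errors, a test score, p-values and adjusted p-values. Dividing both-strand counts by 1 factor for each library gives this deposited signal within a relative difference of 5.11e-15. Gene entries were named through a mouse reference of another build (GENCODE, GRCm38), which also gave chromosomes and exon lengths.

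Tests used the two-sided quasi-likelihood test of edgeR 4.0.16 in R 4.3.3, after its low-count filter by group and TMM scaling, with p-values adjusted by Benjamini-Hochberg (BH) over all genes tested. Called means an adjusted p under 0.05. Fits of a line used its 6 libraries only, and the fit of the difference between lines used all 12. A standard error is the absolute fold change over the square root of F. The procedure was tested on simulated data with 200 genes changed by a log2 fold of 1. It called 76.5% of these in the E12 line and 31.5% in the E47 line. For the difference between the lines it called 30.5%, and between the wild types 69.5%. Unchanged genes called numbered 15, 6, 4 and 10. Changes of that size can thus be missed, most often in the E47 line and in the difference. Smaller changes, such as the members' median log2 fold changes of 0.10 and −0.10, were not simulated, so these shares do not apply to them. Alternatives were DESeq2 1.42.0, RLE scaling, no low-count filter, both-strand counts, all 12 libraries in the fit, sex as a covariate, a replicate block, and leaving out each library. Replicate pairs differed by more than sampling noise (chi-square over degrees of freedom of at least 11.99).

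The replicate numbers come from the labels. Same-numbered libraries of the E47 line deviated together (correlations 0.100, 0.229 and 0.455), so the pairing rule, a correlation over 0.1 in every pair, was met there. It was not met in the E12 line (0.0895, 0.0581 and −0.0079) or between the wild types (0.0497, 0.257 and 0.281). In the E47 line a pair of different numbers, E47wt replicate 1 with E47KO replicate 2, stood at 0.148, above the lowest same-numbered pair. The main E47 fit held no replicate block, which was run as an alternative.

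The members and the other gene lists were chosen with earlier results of these data known. Values in every library are given for Trp53, Mdm2, Mdm4 and Ppm1d, for the 4 members with the highest mean level per kilobase, for any member called, and for members whose knockout libraries do not overlap the wild-type libraries of their line. Plk2, Fas, Tnfrsf10b and the uncalled mesenchymal markers were singled out after their values were seen. From each other list, called genes or the most abundant 2 are named. A further result of these lists is not reported here.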

Additional observations from a re-analysis of the deposited data

How the results depend on the processing

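No alternative called any of the 33 members in any comparison. The number of all genes called moved more. In the E12 line it was 95 with DESeq2, 20 without the low-count filter and 2 with all 12 libraries in the fit, beside 6, and 2 to 10 when 1 library was left out. In the E47 line it was 5 with DESeq2 and 1 with sex as a covariate, beside 2, and 0 to 7 with 1 library left out. For the difference between the lines it was 1 with DESeq2, beside 0, and 0 to 1 with 1 library left out. Between the wild types it was 6 with DESeq2 and 1 with all 12 libraries, beside 0. The cause was not tested. The members' median kept its sign in each comparison under every alternative run. For the difference between the lines it ran from −0.227 to −0.117 with 1 library left out. With the replicate block the members' medians were 0.11 in the E12 line, −0.11 in the E47 line, −0.17 for their difference and 0.05 between the wild types, and the block changed no call of a member. The members at an unadjusted p under 0.05 then numbered 4, 3, 6 and 5, beside 2, 2, 5 and 1. Signs of single uncalled members changed for at most 9 of 33 in any alternative of the E47 line, 6 of 33 in the E12 line, 7 of 33 for the difference and 11 of 33 between the wild types. Gdf15, Perp and Dram1, at about 1 CPM, rest on 538 to 662 reads over the 12 libraries, which limits what their differences can show.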
